A study of Homo sapiens with 6 samples.

Results

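The genes of the AP-1 transcription factors and of 3 further immediate early proteins were compared between PC9/gef, a gefitinib-resistant lung adenocarcinoma line, and PC9, the gefitinib-sensitive line from which it was derived. The members are FOS, FOSB, FOSL1 and FOSL2 of the Fos family, JUN, JUNB and JUND of the Jun family, EGR1, ATF3 and IER3. All probe sets annotated to exactly 1 of these genes were taken, which gave 24 probe sets of the 54613 tested and 10 genes of the 19775 measured. This rule uses gene names and no measured value, but the genes were chosen with earlier results of these data known. PC9/gef had been kept in rising concentrations of gefitinib, an inhibitor of the EGFR kinase, and is a single resistant line, so differences between the lines are those between 1 resistant line and 1 parent. Both lines were grown in the same medium with fetal bovine serum, and whether gefitinib was present when the RNA was taken is not given in the sources used here. There were 3 PC9/gef and 3 PC9 samples, called biological replicates in the labels, each on its own Affymetrix array.

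Immediate early genes are switched on within minutes of a growth factor or stress signal, without new protein synthesis, and their short-lived mRNAs follow the activity of the kinases above them. Fos proteins pair with Jun proteins through a leucine zipper to form AP-1, which binds the sequence TGACTCA, while ATF3 and the CREB proteins bind the related cyclic AMP response element TGACGTCA. In lung adenocarcinoma cells EGFR drives ERK, and ERK activates ELK1, a partner of serum response factor (SRF) at the CArG box in front of genes such as EGR1 and FOS.

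RefSeq promoter windows on build GRCh38.p14 matched 8 of the 10 genes, FOSL1 and IER3 being named only. The 250 bases before the start were searched on both strands for the AP-1 site and the cyclic AMP response element in the letters given above, for the short form TGACG, which also lies within that element, and for the CArG box and the TATA box (TATAAA). Of 35116 such windows in the table, 4.2% held the AP-1 site, 1.65% the whole cyclic AMP response element, 21.2% its short form, 1.16% a CArG box and 10.7% the TATA box. The AP-1 site lay in the window of none of the 8 genes, whereas the short form lay in 7 of them, all but ATF3. Only the EGR1 window held a CArG box, and bases further upstream were not searched, for FOS or any other gene. The windows of EGR1 and JUND, which were higher in PC9/gef, and of FOS, which was lower, are shown as examples. All 3 hold the short form, whereas ATF3, also higher and not shown, does not. The capitals mark the 2 CArG boxes of EGR1, the whole cyclic AMP response element of JUND, and the short form and TATA box of FOS. The short forms of EGR1, 135 and 66 bases before the start, and the further one of JUND, 86 bases before it, were left in lower case. The EGR1 window is chr5:138465229-138465478 on the plus strand, the JUND window chr19:18281623-18281872 on the minus strand and the FOS window chr14:75278578-75278827 on the plus strand, each written 5′ to 3′.
EGR1: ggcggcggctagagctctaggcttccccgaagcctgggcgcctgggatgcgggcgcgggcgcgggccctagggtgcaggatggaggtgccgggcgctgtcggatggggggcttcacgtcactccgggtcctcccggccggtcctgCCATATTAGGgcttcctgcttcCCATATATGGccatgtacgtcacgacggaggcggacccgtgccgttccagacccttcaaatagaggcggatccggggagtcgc
JUND: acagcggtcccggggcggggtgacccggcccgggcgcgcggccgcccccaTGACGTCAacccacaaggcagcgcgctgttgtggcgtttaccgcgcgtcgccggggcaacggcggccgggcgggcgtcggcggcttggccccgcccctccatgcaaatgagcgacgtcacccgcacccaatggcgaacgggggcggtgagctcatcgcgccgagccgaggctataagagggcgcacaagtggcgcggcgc
FOS: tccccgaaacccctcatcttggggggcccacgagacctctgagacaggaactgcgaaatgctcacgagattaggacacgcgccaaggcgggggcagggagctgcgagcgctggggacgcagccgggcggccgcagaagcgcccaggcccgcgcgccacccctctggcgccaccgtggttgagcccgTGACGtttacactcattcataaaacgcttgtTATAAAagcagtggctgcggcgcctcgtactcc
The CArG boxes of EGR1 began 105 and 83 bases before the start, the element of JUND 200 bases before it, and the short form and TATA box of FOS 64 and 33 bases before it. FOSB had the same pair of elements in nearly the same places, 60 and 30 bases before its start. These matches describe the letters of the windows and were not tested as binding sites.

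All values are log2 values of a probe set as the authors deposited them, so a difference of 1 is a 2-fold difference, and levels of different probe sets are not compared with each other. A probe set was said to be at background level in a line where the 3 arrays averaged 2.65 or less, a limit that 95% of 135 olfactory receptor probe sets did not exceed. Changes are PC9/gef minus PC9, tested with limma over all 54613 probe sets, and a probe set was called changed at a Benjamini-Hochberg adjusted p under 0.05. Markers and the genes of the later lists were read from the brightest probe set of each gene. Their p-values were adjusted over the 19775 genes instead. With 3 arrays a line, the smallest two-sided p of an exact permutation test is 0.1, so that test was not used. Nothing says how separate the replicate cultures were, and p-values measure only the spread between these arrays. Arrays of a line correlated at r = 0.9992 or more and arrays of different lines at 0.9945 or less. Of all genes 31.5% passed, and of those above background level in a line 46.0% did. All 10 epithelial marker genes were above background level in both lines, 2 of them higher and 5 lower in PC9/gef. The higher ones were CDH1 (11.81 in PC9/gef and 11.62 in PC9) and KRT7 (14.17 in PC9/gef and 13.88 in PC9). Among the lower ones were CLDN7 (11.48 in PC9/gef and 11.99 in PC9) and ELF3 (8.31 in PC9/gef and 8.80 in PC9). By contrast, 6 of 7 lung lineage markers, NKX2-1 among them, were at background level in both lines. Of the markers of other cell types, 7 of 10 for fibroblasts, 5 of 8 for leukocytes and 4 of 6 for endothelium were at background level in both lines. The sums of log2 values over these lists were 30.6 to 30.7 in PC9/gef and 30.1 to 30.5 in PC9 for fibroblasts, 26.5 to 27.8 in PC9/gef and 26.5 to 27.0 in PC9 for leukocytes, and 18.7 to 18.9 in PC9/gef and 21.5 to 21.6 in PC9 for endothelium, where PECAM1 was 5.28-fold lower in PC9/gef (adjusted p = 0.000146, limma). Of the other markers of these 3 lists above background level, COL1A1 was higher (8.46 in PC9/gef and 7.94 in PC9, adjusted p = 0.038), ITGAM higher (4.93 in PC9/gef and 3.77 in PC9, adjusted p = 0.043) and LYZ lower (7.69 in PC9/gef and 8.77 in PC9, adjusted p = 0.00103), and the rest did not pass. PTPRC of the leukocyte list, DCN of the fibroblast list and CDH5 of the endothelial list were among those at background level in both lines. As a sign of RNA quality, the 3′ control probe set of GAPDH exceeded its 5′ one by 0.05 to 0.07 on PC9/gef arrays and by 0.02 to 0.04 on PC9 arrays, and that of ACTB by 2.36 to 2.39 on PC9/gef and by 1.80 to 1.86 on PC9 arrays. The part of these differences in the results was not tested, and in such bulk RNA fewer cells with a transcript and less of it per cell cannot be told apart.

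Within this family the resistant line had more ATF3, EGR1, JUND and FOSL1 RNA and less FOS RNA, while JUN and IER3 were nearly level between the lines. ATF3, EGR1 and JUND each rose on only 1 of their probe sets. The FOS call held in 2 of the 6 fits that left out 1 array. Of the 24 probe sets, 5 were higher and 2 lower in PC9/gef, 10 did not pass the test and 7 were at background level in both lines. The 7 called are 29.2% of the members, against 16.6% of all probe sets (7.61% higher and 8.99% lower). They were among the 17 member probe sets above background level in a line, and 32.9% of all probe sets above that level passed. Only the probe sets 202672_s_at of ATF3 and 201694_s_at of EGR1 differed more than 2-fold, the definition of a differentially expressed gene in the study, which 1.79% of all probe sets met (0.95% higher and 0.837% lower). Read as genes, each represented by whichever of its probe sets was brightest over the 6 arrays, 6 of the 10 members were higher, 2 were lower, 1 did not pass and 1 was at background level, where 31.5% of all genes passed (14.4% higher and 17.1% lower) and 46.0% of those above background level in a line did. ATF3 and EGR1 were again the 2 past 2-fold, which 2.88% of all genes were (1.54% higher and 1.34% lower). The median log2 change was 0.015 over the 24 probe sets, and over genes, each from its brightest probe set, 0.29 for the 10 members and -0.00065 for all.

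**Figure D1:**
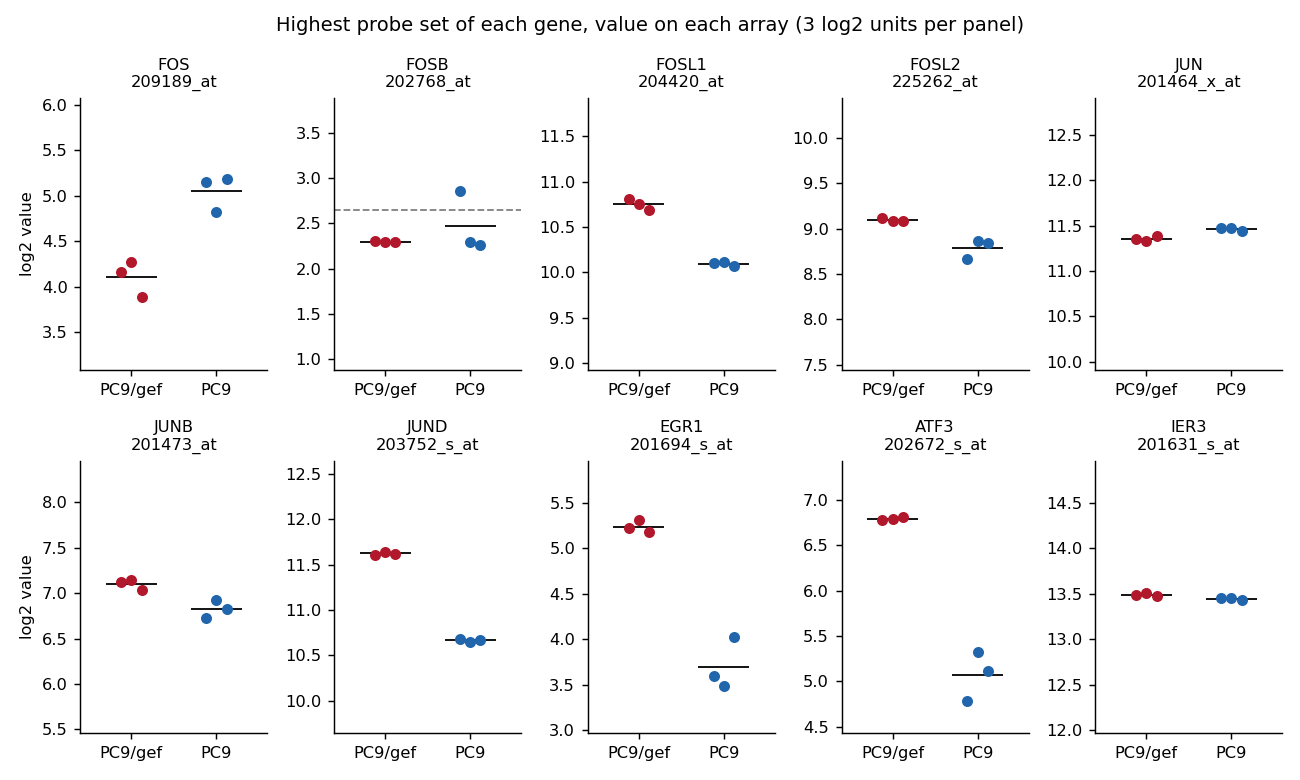
Log2 value of each of the 10 member genes on each array, from the probe set with the highest mean, with PC9/gef at left and PC9 at right of each panel; points are arrays, bars the mean of 3, the dashed line in the FOSB panel is the background level of 2.65, and every panel spans 3 log2 units. The arrays of the lines lie apart in FOS, FOSL1, FOSL2, JUN, JUNB, JUND, EGR1, ATF3 and IER3, though by very little in IER3, and overlap in FOSB.

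FOS, the founding member of the Fos family, whose mRNA appears only briefly after a stimulus, was the only Fos gene that fell. Its log2 values were 4.16, 4.27 and 3.89 on PC9/gef arrays and 5.15, 4.82 and 5.18 on PC9 arrays. All 3 PC9/gef arrays lay below all 3 PC9 arrays, with means of 4.11 ± 0.19 in PC9/gef and 5.05 ± 0.20 in PC9 (SD, n = 3 each). FOS was 1.92-fold lower in PC9/gef (probe set 209189_at, log2 change -0.94 with a standard error of 0.15, 95% confidence interval -1.36 to -0.53, adjusted p = 0.0225 from limma). The call was lost without PC9/gef replicate 1 (adjusted p = 0.0728) or 3 (0.0607) and without PC9 replicate 1 (0.0903) or 3 (0.0823), while the log2 change stayed between -1.06 and -0.84.

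FOSB, the paralog that is usually induced together with FOS, was at background level in both lines. Its log2 values were 2.30, 2.29 and 2.29 on PC9/gef arrays and 2.86, 2.29 and 2.26 on PC9 arrays. PC9 replicate 1 alone stood above background level, and no change was read from the probe set 202768_at (log2 change -0.18, 95% confidence interval -0.68 to 0.32, adjusted p = 0.497).

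FOSL1, which encodes FRA-1, a Fos protein that lacks the strong activation domain of FOS and is long-lived under steady ERK signaling, rose. Its log2 values were 10.81, 10.75 and 10.69 on PC9/gef arrays and 10.10, 10.12 and 10.07 on PC9 arrays. The arrays did not overlap, and the SDs were 0.057 in PC9/gef and 0.028 in PC9. FOSL1 was 1.58-fold higher in PC9/gef (probe set 204420_at, log2 change 0.66 with a standard error of 0.035, 95% confidence interval 0.56 to 0.75, adjusted p = 0.000999), and passed in each of the 6 fits that left out 1 array. FOS and FOSL1 thus differed between the lines in opposite directions, in intervals that do not meet.

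FOSL2, which encodes FRA-2, was read by 5 probe sets that did not give 1 answer. The brightest, 225262_at, had log2 values of 9.12, 9.08 and 9.08 on PC9/gef arrays and 8.66, 8.86 and 8.84 on PC9 arrays, 1.24-fold higher in PC9/gef (adjusted p = 0.0433, log2 change 0.31 with a standard error of 0.063). This call held only without PC9 replicate 1 (adjusted p = 0.0125) and was lost when any 1 of the other 5 arrays was left out (0.0754 to 0.129). The next, 228188_at, had a log2 change of 0.15 (95% confidence interval -0.02 to 0.33, adjusted p = 0.172). The remaining 3 probe sets had log2 changes between -0.058 and 0.021 and did not pass, nor did the mean of all 5 (0.078, adjusted p = 0.0833 over genes).

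JUND, a Jun gene that many cells transcribe without stimulation and the one with the whole cyclic AMP response element shown above, rose with a narrow error. Its log2 values were 11.61, 11.64 and 11.62 on PC9/gef arrays and 10.68, 10.65 and 10.67 on PC9 arrays. Each line had an SD of 0.016, and the difference between the lines was many times that spread. JUND was 1.94-fold higher in PC9/gef (probe set 203752_s_at, log2 change 0.96 with a standard error of 0.012, 95% confidence interval 0.92 to 0.99, adjusted p = 6.0e-05), just short of 2-fold. The other 3 probe sets of JUND were at background level in both lines, with log2 values from 2.20 to 2.42, so the rise rests on 1 probe set, and the mean of all 4 gave a log2 change of 0.25.

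JUN, a main partner of FOS and the substrate that gave the JNK kinases their name, hardly differed. On the brightest probe set, 201464_x_at, its log2 values were 11.35, 11.33 and 11.38 on PC9/gef arrays and 11.47, 11.47 and 11.44 on PC9 arrays. The arrays did not overlap and the probe set was called 1.08-fold lower in PC9/gef (log2 change -0.11 with a standard error of 0.016, adjusted p = 0.0171), a call that was lost without PC9/gef replicate 1 (0.067) or PC9 replicate 1 or 2 (0.0747 each). The other 3 probe sets, 201466_s_at, 201465_s_at and 213281_at, averaged between 7 and 10 on the log2 scale, overlapped between the lines, and had log2 changes of 0.0085 (95% confidence interval -0.10 to 0.12), 0.05 (-0.18 to 0.28) and -0.076 (-0.34 to 0.19). Taken over all 4 probe sets, the intervals for JUN ran no lower than -0.34 and no higher than 0.28.

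JUNB, a Jun protein that often restrains JUN, lay at the threshold. Its log2 values were 7.12, 7.14 and 7.03 on PC9/gef arrays and 6.73, 6.92 and 6.82 on PC9 arrays, every PC9/gef array being above every PC9 array. The difference was 1.21-fold (probe set 201473_at, log2 change 0.27 with a standard error of 0.06, 95% confidence interval 0.11 to 0.43), with an adjusted p of 0.0512 over all probe sets and of 0.0333 over genes. The gene-wise call held without PC9 replicate 2 (0.0337) and was lost without any 1 of the other arrays (0.0584 to 0.0997). On the brightest probe set of each gene, JUND thus had the largest change of the Jun genes. With all probe sets of a gene averaged, the log2 change was 0.25 for JUND and 0.27 for JUNB.

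**Figure D2:**
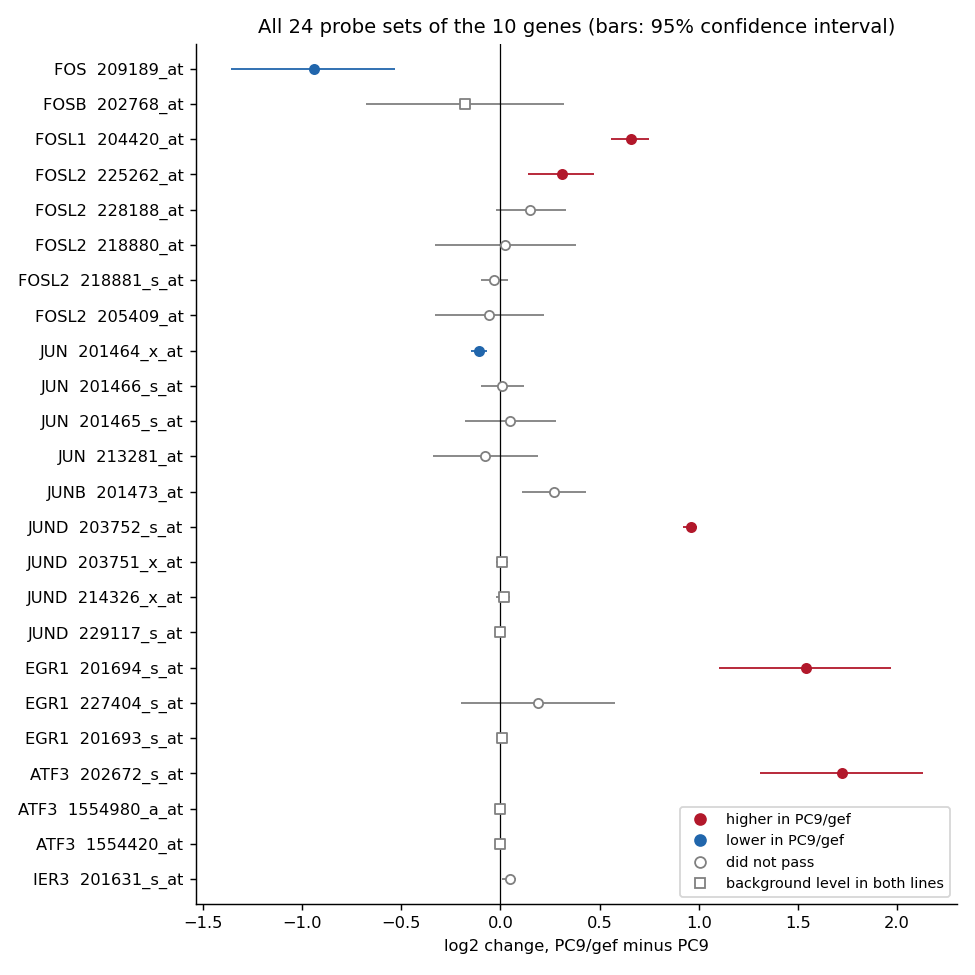
Log2 change, PC9/gef minus PC9, of all 24 member probe sets with their 95% confidence intervals; filled points passed the limma test, open circles did not, and open squares were at background level in both lines. Furthest to the right are 1 probe set each of ATF3 and EGR1, whose others lie near 0, then 1 of JUND and that of FOSL1. FOS lies furthest to the left.

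EGR1, a zinc finger factor whose transcription follows ERK closely, gave different answers from its 3 probe sets. On 201694_s_at its log2 values were 5.22, 5.31 and 5.18 on PC9/gef arrays and 3.59, 3.48 and 4.02 on PC9 arrays. The lowest PC9/gef array was well above the highest PC9 array, and EGR1 was 2.90-fold higher (log2 change 1.54 with a standard error of 0.16, 95% confidence interval 1.10 to 1.97, adjusted p = 0.00617). It passed in each of the 6 fits that left out 1 array (0.00374 to 0.0347). On 227404_s_at the values were 3.78, 3.90 and 4.18 in PC9/gef and 3.89, 3.58 and 3.83 in PC9. These arrays overlapped and the probe set did not pass (log2 change 0.19, 95% confidence interval -0.20 to 0.58, adjusted p = 0.385). The intervals of these 2 probe sets do not meet, and the third, 201693_s_at, was at background level in both lines (2.29 in PC9/gef and 2.28 in PC9). The rise of EGR1 is thus a result of 1 of 3 probe sets, and their mean gave a log2 change of 0.58.

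ATF3, a stress-induced factor of the ATF family that can pair with Jun proteins, had the largest change of the 24 probe sets. Its log2 values on 202672_s_at were 6.78, 6.79 and 6.81 on PC9/gef arrays and 4.78, 5.33 and 5.11 on PC9 arrays. The PC9/gef arrays were nearly equal (SD 0.015) and the PC9 arrays were more spread (SD 0.28), without overlap. ATF3 was 3.29-fold higher in PC9/gef (log2 change 1.72 with a standard error of 0.15, 95% confidence interval 1.31 to 2.13, adjusted p = 0.00388) and passed whichever array was left out (log2 change 1.57 to 1.85). Both other probe sets of ATF3, 1554980_a_at and 1554420_at, were at background level in both lines, at 2.39 and 2.21, and the mean of all 3 gave a log2 change of 0.57.

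IER3, an immediate early protein that affects survival after stress and is not itself a transcription factor, was high in both lines. Its log2 values were 13.49, 13.51 and 13.47 on PC9/gef arrays and 13.45, 13.45 and 13.43 on PC9 arrays. The arrays were apart by at most 0.08 and the probe set 201631_s_at did not pass (log2 change 0.046, 95% confidence interval 0.01 to 0.08, adjusted p = 0.0831).

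The spread of the members between arrays was close to that of other probe sets in PC9/gef, and its median was larger in PC9. Over the 17 member probe sets above background level in a line, the median SD was 0.057 in PC9/gef and 0.092 in PC9, against 0.064 in PC9/gef and 0.056 in PC9 over all 25348 such probe sets. No array was high throughout. In PC9/gef, replicates 1, 2 and 3 gave the highest value in 5, 7 and 5 of these probe sets, and in PC9 in 8, 6 and 3. Spread was not tested, since 3 arrays are too few.

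Other immediate early genes changed in both directions, among them regulators of kinases, growth arrest and translation. Of the 38 such genes measured here, 16 rose and 6 fell in PC9/gef, 12 did not pass and 4 were at background level in both lines. The 22 called are 57.9% of the list, against 31.5% of all genes. They were among the 34 genes of the list above background level in a line, and 46.0% of all genes above that level passed. The list's median log2 change was 0.064, against -0.00065 over all genes. DUSP1, the phosphatase that switches off ERK, JNK and p38 kinases in the nucleus, had log2 values of 9.08, 9.09 and 9.08 on PC9/gef arrays and 7.56, 7.61 and 7.64 on PC9 arrays, 2.79-fold higher (log2 change 1.48 with a standard error of 0.024, adjusted p = 4.8e-05 over genes), and its log2 change was 0.49 with all its probe sets averaged. GADD45A, a growth arrest protein induced by DNA damage, had 12.63, 12.58 and 12.66 in PC9/gef and 11.57, 11.62 and 11.56 in PC9, 2.06-fold higher (adjusted p = 0.000133). PPP1R15A, also called GADD34, which helps to restart translation after stress, had 6.75, 6.75 and 6.63 in PC9/gef and 5.87, 5.54 and 5.72 in PC9, 2.01-fold higher (adjusted p = 0.00293). In these 3 genes every PC9/gef array was above every PC9 array. NFIL3, a bZIP repressor, was 1.82-fold higher, with 8.07, 8.04 and 8.03 in PC9/gef and 7.10, 7.26 and 7.20 in PC9 (adjusted p = 0.000576). NR4A2, an orphan nuclear receptor, went the other way, with 4.05, 4.38 and 4.36 in PC9/gef and 5.53, 5.68 and 5.59 in PC9, 2.53-fold lower (log2 change -1.34 with a standard error of 0.11, adjusted p = 0.00183). Like FOS, it lay below its PC9 values on every PC9/gef array. The EGR1 relatives EGR3 and EGR4 were dim. EGR3 did not pass, with means of 2.97 in PC9/gef and 2.71 in PC9 (adjusted p = 0.222), and EGR4 was at background level in both lines, at 2.41.

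**Figure D3:**
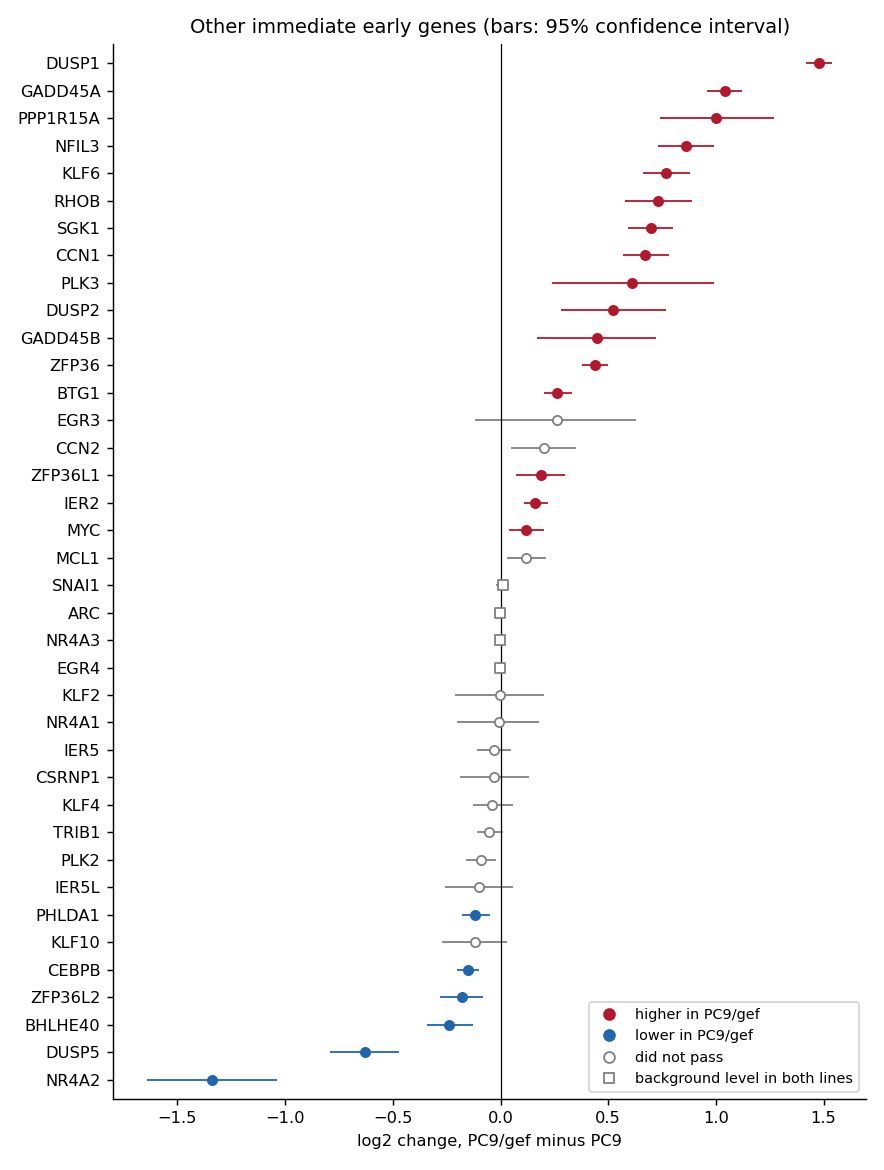
Difference in log2 value, PC9/gef minus PC9, for each of the 38 other immediate early genes with 95% confidence intervals, from 1 probe set per gene; filled points passed the limma test, open circles did not, and open squares were at background level in both lines. DUSP1 has the largest rise and NR4A2 the largest fall, and 16 genes passed upward and 6 downward.

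Among genes of factors that pair or compete with Fos and Jun, BATF and JDP2 fell most. Of 16 measured bZIP genes related to AP-1, 1 was higher, 4 were lower, 8 did not pass and 3 were at background level in both lines. The 5 called are 31.2% of the list, close to the 31.5% of all genes. They were among the 13 genes of the list above background level in a line, and 46.0% of all genes above that level passed. BATF, which binds with Jun proteins and limits AP-1 activity, had log2 values of 6.17, 6.26 and 6.11 in PC9/gef and 7.70, 7.33 and 7.40 in PC9, 2.45-fold lower (log2 change -1.29 with a standard error of 0.12, adjusted p = 0.00223). JDP2, the Jun dimerization protein that represses AP-1 sites, had 8.29, 8.27 and 8.39 in PC9/gef and 9.02, 9.14 and 9.15 in PC9, 1.72-fold lower (adjusted p = 0.00104). Both genes were lower on every PC9/gef array than on any PC9 array. NFE2L3, a relative of NRF2, was 1.46-fold lower (log2 change -0.55, adjusted p = 0.00638), and its log2 change was -0.32 without _s_at probe sets. NFE2L2, the gene of NRF2 itself, was 1.06-fold lower (adjusted p = 0.0363), a call lost without PC9/gef replicate 1 (0.0943) or PC9 replicate 1 (0.0966), 2 (0.116) or 3 (0.0916). MAFF, a small MAF protein without an activation domain, was 1.15-fold higher, with means of 12.22 ± 0.006 in PC9/gef and 12.02 ± 0.015 in PC9 (SD, n = 3 each; adjusted p = 0.000372).

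Above AP-1, the largest differences were those of 2 kinase genes, both lower in PC9/gef. Of 21 measured genes of upstream kinases, SRF and its partners, 3 were higher, 3 were lower, 14 did not pass and 1 was at background level in both lines. The 6 called are 28.6% of the list, below the 31.5% of all genes. They were among the 20 genes of the list above background level in a line, and 46.0% of all genes above that level passed. RPS6KA2, which encodes a ribosomal S6 kinase that ERK activates, had log2 values of 5.81, 6.15 and 5.77 in PC9/gef and 7.05, 7.15 and 7.25 in PC9, 2.36-fold lower (log2 change -1.24 with a standard error of 0.13, adjusted p = 0.00333). MAP3K1, a kinase above JNK, had 8.82, 8.98 and 8.83 in PC9/gef and 10.08, 10.01 and 9.96 in PC9, 2.20-fold lower (log2 change -1.14 with a standard error of 0.06, adjusted p = 0.000532). Neither gene overlapped between the lines. With all probe sets of each gene averaged, the log2 change was -0.48 for RPS6KA2 and -0.57 for MAP3K1, and both passed. ELK4, a partner of SRF, was 1.24-fold higher in PC9/gef, with means of 9.59 in PC9/gef and 9.27 in PC9 (log2 change 0.32, adjusted p = 0.00923), but did not pass with all its probe sets averaged (log2 change 0.053, adjusted p = 0.176) or without _s_at probe sets (0.40, adjusted p = 0.0557). MAPK8, the gene of JNK1, was 1.13-fold higher (adjusted p = 0.022), a call lost without PC9/gef replicate 2 (0.0583) or 3 (0.0798) or PC9 replicate 2 (0.0773). CREB1, which binds the cyclic AMP response element, was 1.11-fold higher (adjusted p = 0.0299), a call lost without PC9/gef replicate 1 (0.0898), 2 (0.0705) or 3 (0.0663) or PC9 replicate 3 (0.0811). It had a log2 change of -0.083 (adjusted p = 0.152) when all its probe sets were averaged, and SRF itself did not pass (7.17 in PC9/gef and 7.01 in PC9, adjusted p = 0.128).

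Among genes known as AP-1 targets, the cytokine genes IL11, IL6 and CXCL8 and the urokinase genes PLAU and PLAUR were higher in PC9/gef. The cytokine gene CCL2 and the matrix metalloproteinase genes MMP1, MMP3, MMP10, MMP12 and MMP13 were at background level in both lines. MMP9 was above that level and did not pass (5.20 in PC9/gef and 5.50 in PC9, adjusted p = 0.113, limma). Of 28 measured targets, 11 were higher, 2 were lower, 9 did not pass and 6 were at background level. The 13 called are 46.4% of the list, against 31.5% of all genes. They were among the 22 targets above background level in a line, and 46.0% of all genes above that level passed. The median log2 change of the list was 0.06, against -0.00065 over all genes. IL11, IL6 and CXCL8 are among the genes the study listed from these arrays, so their part in the count is not independent evidence. IL11, a cytokine of the IL-6 family, had log2 values of 9.37, 9.36 and 9.48 in PC9/gef and 6.86, 6.98 and 6.91 in PC9. CXCL8, the gene of IL-8, had 9.28, 9.39 and 9.38 in PC9/gef and 7.51, 7.71 and 7.55 in PC9, and IL6 had 6.99, 7.22 and 7.19 in PC9/gef and 5.98, 5.80 and 5.43 in PC9. The folds were 5.61 for IL11, 3.39 for CXCL8 and 2.63 for IL6 (adjusted p = 7.8e-05, 0.000253 and 0.00578, limma), without overlap between the lines, and the log2 change of IL11, 2.49 on its brightest probe set, was 1.46 with all its probe sets averaged. PLAU, the gene of urokinase, averaged 12.66 ± 0.038 in PC9/gef and 11.95 ± 0.061 in PC9, and that of its receptor, PLAUR, 10.19 ± 0.069 in PC9/gef and 9.62 ± 0.036 in PC9 (SD, n = 3 each; adjusted p = 0.000634 and 0.00139, limma). VIM, the gene of the intermediate filament vimentin, had 11.29, 11.36 and 11.34 in PC9/gef and 10.50, 10.39 and 10.38 in PC9, 1.87-fold higher (log2 change 0.91 with a standard error of 0.041, adjusted p = 0.00038), and its log2 change was 0.45 with all its probe sets averaged. SPRR3, a small proline-rich protein of the cornified envelope, was lower, with 9.82, 9.74 and 9.68 in PC9/gef and 11.21, 11.28 and 11.22 in PC9, 2.81-fold lower (log2 change -1.49 with a standard error of 0.042, adjusted p = 0.000133). Its relative SPRR1A did not pass (log2 change -0.0091, adjusted p = 0.816) and SPRR1B was 1.06-fold higher (adjusted p = 0.0388). The other target that fell was VEGFA, the gene of an angiogenic growth factor, by 1.06-fold (10.08 in PC9/gef and 10.17 in PC9, adjusted p = 0.00859).

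**Figure D4:**
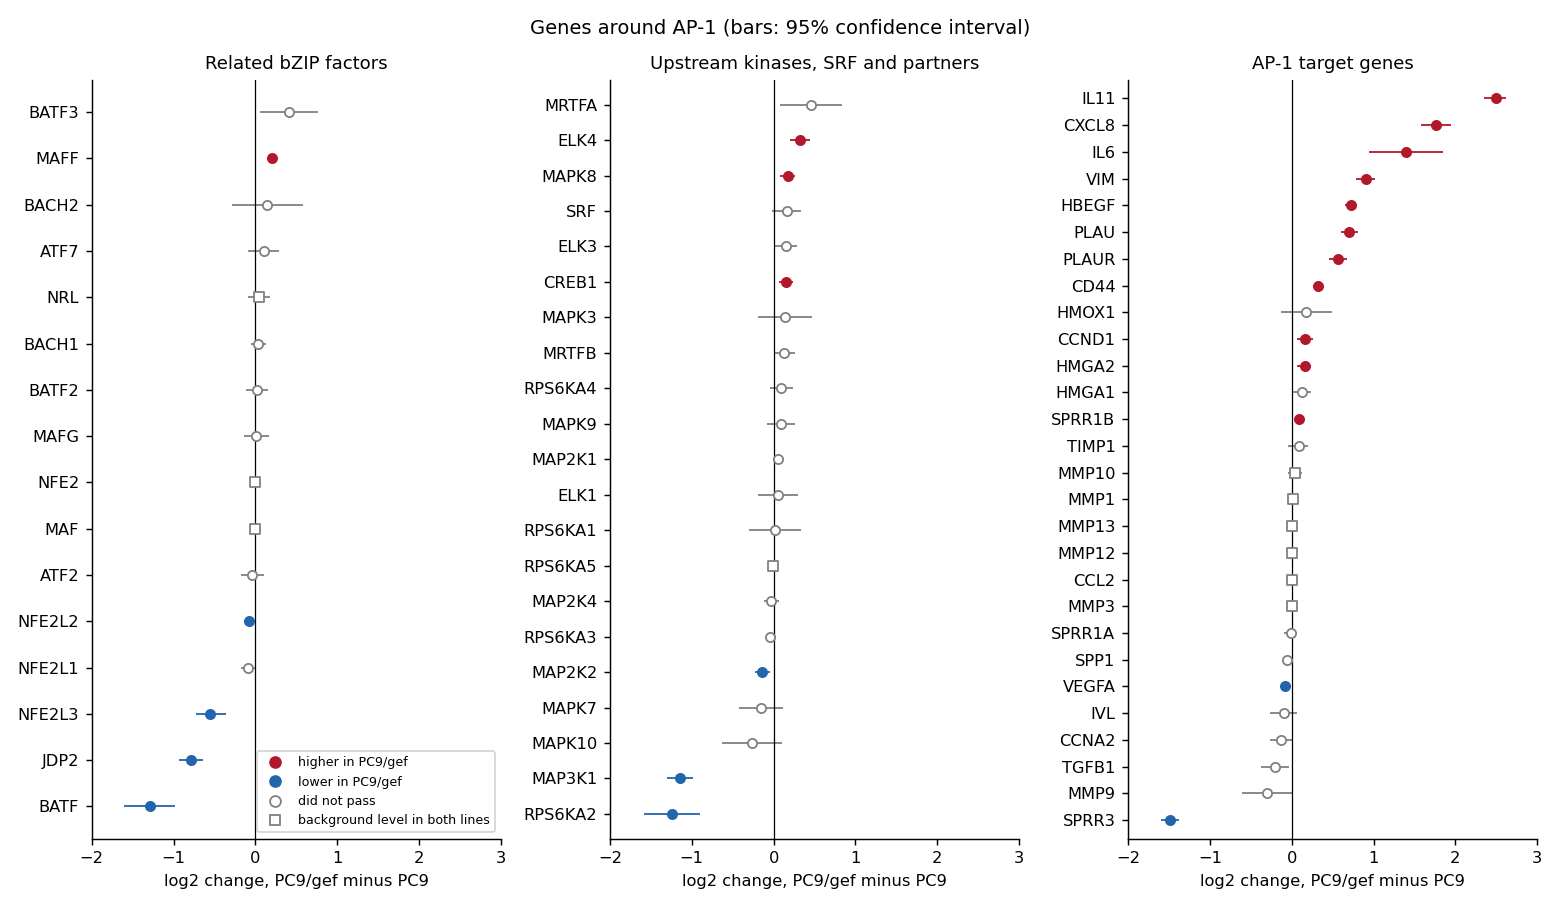
Log2 change, PC9/gef minus PC9, of related bZIP factors (16 genes), upstream kinases with SRF and its partners (21 genes) and AP-1 target genes (28 genes), with 95% confidence intervals; filled points passed the limma test, open circles did not, and open squares were at background level in both lines. BATF, JDP2, RPS6KA2, MAP3K1 and SPRR3 lie furthest to the left, and IL11, CXCL8 and IL6 furthest to the right.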

How the data were processed

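Total RNA of 3 PC9/gef and 3 PC9 samples was measured on Affymetrix arrays with 54675 probe sets. The deposited log2 values are the authors' background-corrected and normalized summaries, 1 per probe set. GC-RMA and GeneSpring GX are named in the study's methods and RMA in the submitters' processing notes, and versions are not given in the sources used here. All arrays hold the same sorted values, from 1.65 to 15.72, so none was renormalized, and dim probe sets are compressed towards a floor. There are no counts, so the number of arrays limits the precision.

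The 62 control probe sets were left out. limma 3.58.1 under R 4.3.3 (trend and robust off) was fitted to the other 54613, and p-values were adjusted by Benjamini-Hochberg over them and, with 1 probe set per gene, over 19775 genes. The fit was tested on simulated data. GEO's platform annotation gave 1 gene for 41091 probe sets, several for 1801 and none for 11721. Promoters came from RefSeq, and figures from matplotlib 3.10.9. Groups follow the labels.

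The members and lists were chosen with earlier results of these data known, and the lists were written from general knowledge. Named genes are all members and, per list, the 5 most changed that passed and did not overlap between the lines. EGR3, EGR4, SRF, PLAU, PLAUR, VEGFA, SPRR1A, SPRR1B, CCL2, the MMP genes, and the markers were named after their values were seen. The alternatives were 2 other scalings (quantiles, array medians), trend and robust moderation, only probe sets above background level, a replicate block, each array left out, the methods' t-test, averaged probe sets, no _x_at or _s_at probe sets, and other background percentiles.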

Additional observations from a re-analysis of the deposited data

How the results depend on the processing

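The arrays already share 1 sorted distribution, so quantile normalization and median centring left the counts as they were and are no check of them. The methods' t-test called 7 member probe sets higher and 2 lower without adjustment, and 4 higher and 2 lower after Benjamini-Hochberg adjustment. The shares of all probe sets passing this t-test are not given here, so these counts are not read as particular to the members. Leaving out 1 array gave 4 to 5 higher and 0 to 2 lower member probe sets, 4 to 6 higher and 1 to 2 lower member genes, 11 to 14 higher and 3 to 5 lower other immediate early genes, 1 higher and 3 to 6 lower related bZIP genes, 1 to 3 higher and 2 to 4 lower upstream genes, and 8 to 9 higher and 2 lower AP-1 targets. Same-numbered arrays of the lines did not deviate together (r of deviations -0.026, 0.016 and 0.048 over 24997 probe sets), so the replicate number is only a number. With it as a replicate block, no member probe set and no member gene was lower (0 and 0), 10 other immediate early genes were higher and 3 lower, 1 upstream gene and 7 AP-1 targets were higher, and EGR1 on 201694_s_at had an adjusted p of 0.0755 with the same log2 change of 1.54. Without _x_at and _s_at probe sets 3 member genes were higher (FOSL1, FOSL2 and JUNB) and 1 lower (FOS) of the 7 that kept a probe set. JUND, EGR1 and IER3 kept none, and ATF3, read from a probe set that was not above background, had a log2 change of -0.0011. In this setting 6 AP-1 targets were higher and 1 lower. With all probe sets of a gene averaged, 1 member gene was lower, 1 upstream gene was higher and CREB1 had a log2 change of -0.083. Trend and robust moderation, and likewise only probe sets above background level, gave 2 higher related bZIP genes and 5 higher upstream genes, and both called JUNB (adjusted p = 0.0382 and 0.0128). The 90th and 99th percentiles of the olfactory receptor probe sets put the background level at 2.59 and 6.67, with 7 and 13 member probe sets at or below it in both lines. The causes were not tested, beyond the fewer probe sets or arrays that these settings hold. Signal close to background limits EGR1, FOS, FOSB and the dim probe sets of the other members.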
